A study of Homo sapiens with 60 samples.

Results

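Aminoacyl-tRNA synthetases are the enzymes that join each amino acid to its transfer RNA, and their messenger RNAs were followed here in 3 human breast cell lines given doxorubicin, rapamycin or both. The genes were a list of 35 cytosolic and mitochondrial synthetases, found by the platform's gene symbol and each represented by its probe set with the highest mean. Values were obtained for 32 of them, 17 cytosolic and 15 mitochondrial, among 19775 genes with a value. The other 3, MARS1, QARS1 and TARS2, lie only on probe sets that also carry the symbol of a microRNA gene, so no value is given for them.

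SKBR3 is a mammary adenocarcinoma line that overexpresses HER-2, the receptor encoded by ERBB2. C5.2 was derived from HB4a by introducing a full-length cDNA of HER-2, and HB4a is a line of normal breast epithelium. Within every line the groups were rapamycin at 20 nM with doxorubicin at 30 nM (called both drugs here), rapamycin at 20 nM, doxorubicin at 30 nM, and the DMSO vehicle. Doxorubicin is an anthracycline that poisons topoisomerase II, and rapamycin inhibits mTORC1, the kinase complex that ties protein synthesis to nutrients and growth factors. The medium of SKBR3 lacked the insulin and hydrocortisone that all groups of C5.2 and HB4a received. Each of the 12 groups held 5 arrays, numbered 1, 2, 3, 4 and 6 in their titles. The titles of the vehicle arrays carry the letters DRC, which the treatment protocol uses for the drug pair, while their source names say vehicle and those of the arrays titled DR say both drugs. The source names were followed here, and every comparison with vehicle rests on them. The sources used here give no treatment time.

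Cytosolic and mitochondrial protein synthesis use separate sets of synthetases, most of them products of separate nuclear genes, and the mitochondrial enzymes are imported after their translation. Several cytosolic enzymes, among them those encoded by EPRS1, IARS1, KARS1, LARS1, MARS1, QARS1 and RARS1, sit together in a multisynthetase complex. The transcription factor ATF4, which responds to amino acid shortage and is also controlled through mTORC1, is known to drive many cytosolic synthetase genes together with genes of serine and asparagine synthesis.

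ATF4 acts through composite elements with the core TGATGNAA, so RefSeq promoter windows (GRCh38.p14, 250 bases before to 50 after each gene start) were searched for that core on both strands. Windows were found for 30 of the 35 listed genes, the others being AARS2, LARS1, VARS1, VARS2 and YARS1. The core occurred in 5 of the 30 windows (16.7%), against 3.75% of all 27305 promoters of that length and 2.69% of those whose gene had a value. It lay in the windows of AARS1, IARS1, MARS1 and NARS1 among 16 cytosolic genes and of YARS2 among 14 mitochondrial genes. The E-box CACGTG, a palindrome whose matches here overlapped none of the cores, occurred in 3 of the 30 windows (EARS2, IARS1 and MARS2), against 7.28% of all promoters. A match describes the letters of the window and is not a bound site. The windows of the 3 cytosolic genes with both a core and a value are shown along the gene's own strand, with the core or its reverse complement in capitals, because AARS1 and IARS1 fell under rapamycin in SKBR3 and in C5.2 while NARS1 passed the test in none of the treatments.
AARS1, chr16:70289457-70289756, minus strand: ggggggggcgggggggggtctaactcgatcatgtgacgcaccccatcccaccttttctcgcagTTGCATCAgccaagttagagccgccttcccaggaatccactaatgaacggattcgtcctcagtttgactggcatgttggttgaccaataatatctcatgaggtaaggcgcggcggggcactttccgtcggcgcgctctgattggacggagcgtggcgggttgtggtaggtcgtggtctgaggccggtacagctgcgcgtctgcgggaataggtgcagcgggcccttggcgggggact
IARS1, chr9:92293648-92293947, minus strand: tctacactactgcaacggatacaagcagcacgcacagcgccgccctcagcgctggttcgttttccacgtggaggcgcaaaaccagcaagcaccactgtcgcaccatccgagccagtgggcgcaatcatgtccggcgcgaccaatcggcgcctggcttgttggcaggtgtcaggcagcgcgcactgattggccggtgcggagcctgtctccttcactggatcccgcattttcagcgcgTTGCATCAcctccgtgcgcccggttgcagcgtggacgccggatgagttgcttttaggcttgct
NARS1, chr18:57621787-57622086, minus strand: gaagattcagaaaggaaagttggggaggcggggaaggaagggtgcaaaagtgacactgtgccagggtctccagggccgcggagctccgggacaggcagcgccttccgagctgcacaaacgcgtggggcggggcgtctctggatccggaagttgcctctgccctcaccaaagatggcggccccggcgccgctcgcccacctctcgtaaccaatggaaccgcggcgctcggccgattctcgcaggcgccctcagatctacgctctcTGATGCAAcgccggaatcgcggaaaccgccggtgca

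HARS1 and HARS2, the cytosolic and mitochondrial histidine enzymes, start 85 bases apart on opposite strands of chromosome 5, and 184 of the 300 bases of their windows are shared. The window of HARS2 is shown because the changes of this pair are set side by side further on. Its capitals mark the bases that also lie in the window of HARS1.
HARS2, chr5:140691205-140691504, plus strand: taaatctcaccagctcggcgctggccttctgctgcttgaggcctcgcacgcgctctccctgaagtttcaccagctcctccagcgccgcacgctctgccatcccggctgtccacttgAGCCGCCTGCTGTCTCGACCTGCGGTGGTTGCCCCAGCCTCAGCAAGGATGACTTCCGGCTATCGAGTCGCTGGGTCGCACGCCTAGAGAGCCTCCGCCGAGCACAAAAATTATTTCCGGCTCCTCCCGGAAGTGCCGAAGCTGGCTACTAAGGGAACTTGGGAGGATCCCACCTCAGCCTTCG

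Values are log2 probe set signals, and a difference is the mean of the first group minus the mean of the second, ± its standard error, with 5 arrays a group. A gene rose or fell where the 2-sided adjusted p from limma, taken over all genes tested in that comparison, was under 0.05. A gene was tested where its value passed log2 5 on at least 5 arrays of the fit. All 17 cytosolic members were tested in every fit, with 12 mitochondrial members in HB4a and 10 in each of C5.2 and SKBR3. MARS2 and SARS2, the mitochondrial methionine and serine enzymes, were tested in none. Probe sets differ in brightness for reasons other than RNA level, so members are compared by their changes and never by their levels. In RNA from whole cultures, fewer cells that make a transcript and less of it per cell cannot be told apart. P-values measure the spread between these arrays, and 5 arrays a group limit the precision.

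The epithelial keratin KRT18 averaged 11.72 in SKBR3, 10.46 in C5.2 and 11.65 in HB4a in vehicle, and ERBB2 averaged 11.48, 12.06 and 6.67 in the same order. The epithelial cadherin CDH1 was near the floor in SKBR3 (median 0.52) except on vehicle array 3, at 5.06. Leukocyte and endothelial markers had 0 of 3 medians above log2 5 in every group, and of the fibroblast markers only DCN passed it, with vehicle means of 6.01 in C5.2 and 7.42 in HB4a. Some arrays stood apart over all genes, namely SKBR3 number 1, C5.2 number 2, HB4a number 1 and HB4a rapamycin 4. Counts without them or without SKBR3 vehicle array 3 are given where they change a result.

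Under rapamycin alone, C5.2 had the highest count of lower synthetases among the 3 lines. There 11 of 17 cytosolic and 4 of 10 mitochondrial members fell and 0 rose, where 14.6% of all 6292 genes fell. The median difference was -0.31 over the cytosolic and -0.19 over the mitochondrial members, against -0.08 over all genes. The largest fall was in VARS1, the cytosolic valine enzyme. VARS1 read 4.92, 5.08, 4.73, 4.79 and 5.15 with rapamycin, against 5.51, 6.11, 5.64, 5.85 and 6.06 in vehicle. The groups did not overlap, and the difference was -0.90 ± 0.15 (adjusted p = 0.00071), a 1.86-fold lower signal. A second, dim VARS1 probe set moved by 0.20 in the same comparison, so the fall was seen with the brighter one only. In C5.2 VARS1 was above log2 5 on every vehicle and doxorubicin array but, with rapamycin, on arrays 2 and 6 only. It passed the filter there through the groups where it was high, so its falls in C5.2 were partly built into its entry.

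YARS1, for tyrosine, read 6.92, 7.02, 6.51, 6.67 and 6.88 with rapamycin in C5.2, against 7.41, 7.75, 7.21, 7.42 and 7.49 in vehicle. Every rapamycin array lay below every vehicle array, and the difference was -0.65 ± 0.12 (adjusted p = 0.0011). GARS1, for glycine, read 8.33, 8.12, 8.08, 8.28 and 8.25, against 8.51, 8.57, 8.54, 8.69 and 8.62 in vehicle, also without overlap (-0.38 ± 0.08). WARS1, the tryptophan enzyme and an interferon-induced gene, read 5.32, 5.52, 5.11, 5.28 and 5.37, against 5.73, 6.12, 5.76, 5.71 and 5.90 in vehicle, a difference of -0.52 ± 0.11. The other cytosolic falls were those of CARS1 (cysteine, -0.58), FARSA (the alpha subunit of the phenylalanine enzyme, -0.57), HARS1 (-0.48), SARS1 (serine, -0.31), AARS1 (alanine, -0.30), IARS1 (isoleucine, -0.29) and KARS1 (lysine, -0.23). IARS1 was the only one of the 15 whose arrays overlapped, and its call ended when any of 11 of the 20 arrays was left out (adjusted p up to 0.12). The calls of AARS1 and SARS1 ended without vehicle 2 or rapamycin 3 or 4 (adjusted p up to 0.054 and 0.059).

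The mitochondrial enzymes that fell with rapamycin in C5.2 were CARS2 (cysteine, -0.58 ± 0.09), LARS2 (leucine, -0.54 ± 0.10), EARS2 (glutamate, -0.53 ± 0.12) and FARS2 (phenylalanine, -0.48 ± 0.11). For EARS2 every rapamycin and both-drugs array of C5.2 lay under log2 5, and every vehicle and doxorubicin array above it. EARS2 thus passed the filter through the groups where it was high, so its falls in C5.2 were built into its entry. CARS2 read 5.98, 5.84, 5.54, 5.77 and 5.88 with rapamycin, against 6.32, 6.62, 6.24, 6.41 and 6.31 in vehicle. LARS2 read 6.17, 5.80, 5.66, 5.93 and 6.14, against 6.39, 6.68, 6.43, 6.41 and 6.49 in vehicle. In both genes the groups were fully apart. With the mean of all probe sets of a gene in place of the brightest, 8 members passed in this comparison. Averaging with dim probe sets takes some members, such as CARS2, under the filter. Counts with that mean, here and below, thus come from fewer tested members.

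In SKBR3, rapamycin alone lowered 7 of 17 cytosolic and 1 of 10 mitochondrial members, where 10.8% of all 5977 genes fell. It raised 0 cytosolic and 1 mitochondrial member, where 7.48% of genes rose. The cytosolic median was -0.19 and the mitochondrial median -0.04, against -0.03 over all genes. YARS1 read 6.76, 6.64, 6.61, 6.54 and 6.64 with rapamycin, against 7.15, 7.28, 7.16, 7.14 and 7.26 in vehicle, a difference of -0.56 ± 0.08 (adjusted p = 3.4e-05). IARS1 read 8.53, 8.38, 8.46, 8.69 and 8.50, against 9.0, 8.84, 9.03, 9.13 and 8.95 in vehicle, a difference of -0.48 ± 0.08. In both genes all rapamycin arrays were below all vehicle arrays. TARS1, the threonine enzyme, had the largest mean fall, -0.78 ± 0.24, at 7.21, 6.71, 6.78, 7.31 and 6.77, against 8.42, 7.04, 7.67, 7.94 and 7.62 in vehicle. Its arrays overlapped, and its call ended without any of 5 arrays (vehicle 1 or 4 or rapamycin 2, 3 or 6, adjusted p up to 0.098), without the number 1 arrays (adjusted p = 0.075) and without the filter (adjusted p = 0.055).

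GARS1 also fell in SKBR3 with rapamycin, at 8.40, 8.31, 8.51, 8.40 and 8.45, against 8.77, 8.62, 8.79, 8.66 and 8.77 in vehicle (-0.31 ± 0.08), as did FARSB, the beta subunit of the phenylalanine enzyme, at 7.57, 6.92, 7.46, 7.54 and 7.33, against 7.84, 7.70, 7.69, 7.79 and 7.62 (-0.36 ± 0.10). The mitochondrial LARS2 read 5.55, 5.45, 5.54, 5.45 and 5.33, against 5.79, 5.77, 5.72, 5.80 and 5.73 in vehicle (-0.30 ± 0.08). None of these 3 pairs of groups overlapped. CARS1 (-0.37) and AARS1 (-0.36) completed the falls. The call of FARSB ended without vehicle 1 or rapamycin 2, that of AARS1 without vehicle 3, 4 or 6 or rapamycin 2, and that of CARS1 without any of 6 arrays (vehicle 1, 2 or 3 or rapamycin 3, 4 or 6), with adjusted p up to 0.052, 0.086 and 0.12.

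WARS2, the mitochondrial tryptophan enzyme, was the member that rose in SKBR3 with rapamycin, by 0.54 ± 0.10 (adjusted p = 0.00045). It read 5.35, 5.10, 5.26, 5.43 and 5.29 with rapamycin, against 4.83, 4.77, 4.7, 4.71 and 4.7 in vehicle. All 5 vehicle arrays lay under the log2 5 limit, so WARS2 entered the test through the groups in which it was high. Without the filter the rise also passed (adjusted p = 0.0014), and 5 members passed in all under that setting. With the mean of all probe sets 5 did.

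In HB4a, rapamycin alone moved 0 of 29 members past the limma threshold (3.18% of 6167 genes passed), and 4 had an unadjusted p under 0.05, all lower. The cytosolic median was -0.14, with members between -0.50 and 0.51, against 0.01 over all genes. Arrays of the same number deviated together in this comparison. With the number as a block 16.3% of all genes passed in either direction, and the 29 members, counted in either direction, were near that share. The 5 that passed were all lower, 5 of 17 cytosolic and 0 of 12 mitochondrial members. The share of all genes that fell with the block is not given, so the falls alone were not set against it. The 5 genes were VARS1 (-0.50), YARS1 (-0.36), SARS1 (-0.25), AARS1 (-0.25) and GARS1 (-0.24). VARS1 read 5.52, 6.41, 5.77, 6.19 and 6.21 with rapamycin, against 6.42, 6.77, 6.23, 6.70 and 6.47 in vehicle. Each rapamycin array was below the vehicle array of its number, while the groups as a whole overlapped.

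**Figure D1:**
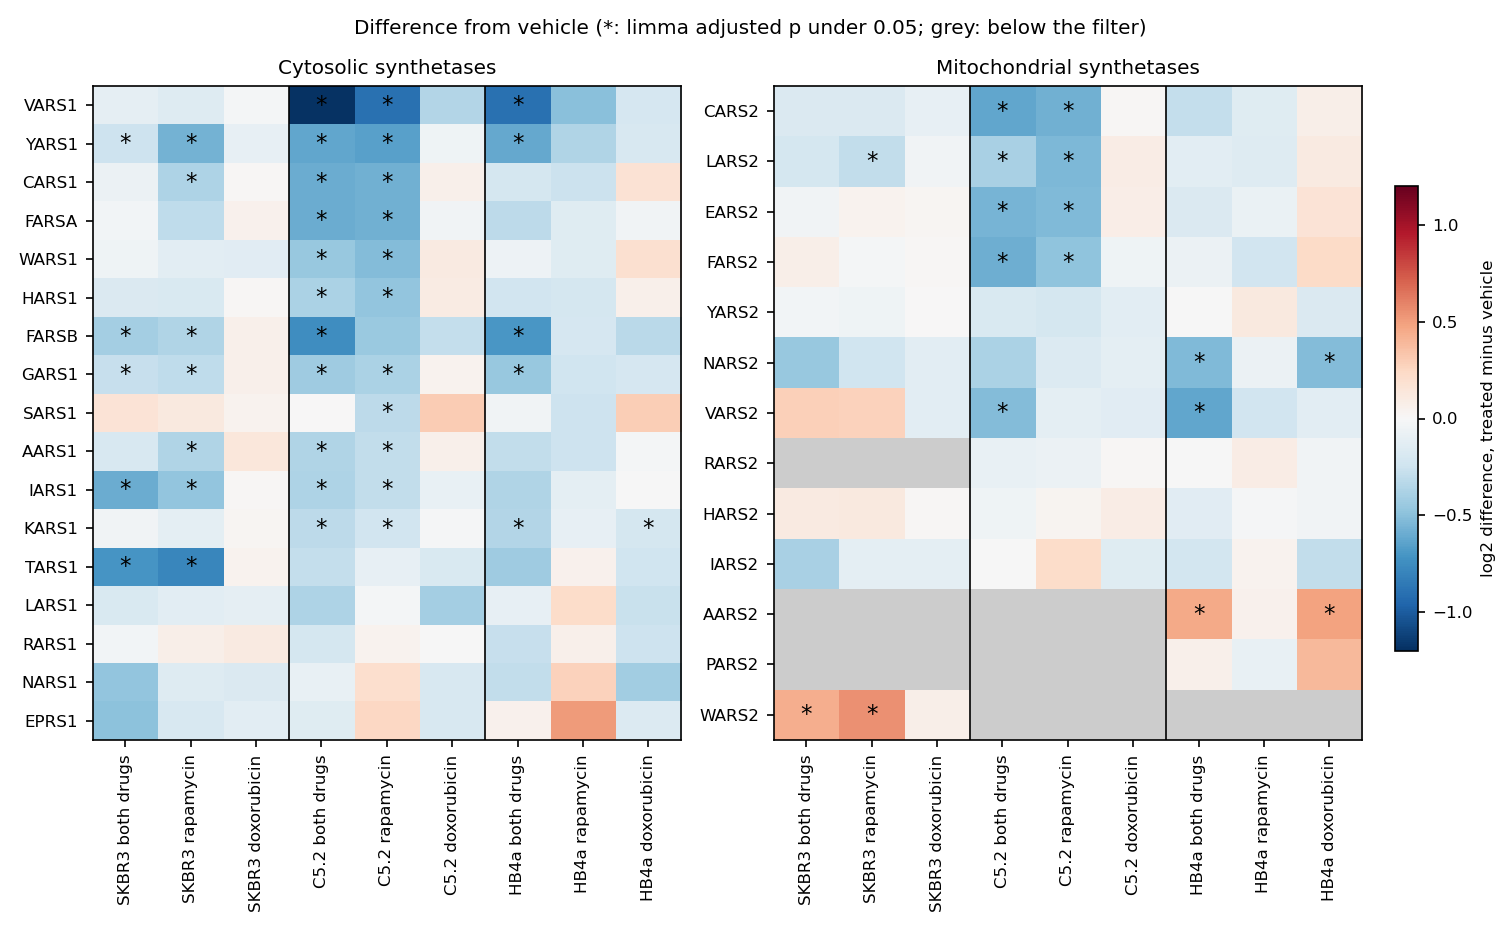
Log2 difference from vehicle (colour, treated minus vehicle) for each synthetase tested (rows) in each line and treatment (columns), cytosolic on the left and mitochondrial on the right, with stars for a limma adjusted p under 0.05 and grey for genes below the filter. Most starred falls lie in the rapamycin and both-drugs columns of C5.2, and the starred rises are those of WARS2 in SKBR3 and AARS2 in HB4a.

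With both drugs, C5.2 had 11 of 17 cytosolic and 5 of 10 mitochondrial members lower and 0 higher than vehicle, where 14.6% of all genes fell. The 3 treatments of a line were set against the same 5 vehicle arrays. The cytosolic median was -0.37 and the mitochondrial median -0.38, against -0.06 over all genes. VARS1 read 4.62, 4.97, 4.35, 4.42 and 4.87 with both drugs, against 5.51, 6.11, 5.64, 5.85 and 6.06 in vehicle, a difference of -1.19 ± 0.15 (adjusted p = 2.0e-05) and a 2.28-fold lower signal. All its both-drugs arrays were below all vehicle arrays, while the dim second probe set moved by -0.05. The both-drugs arrays of VARS1 all lay under log2 5, so the entry limit given for rapamycin holds here too. FARSB read 6.01, 6.41, 5.91, 6.34 and 6.51, against 7.18, 6.99, 6.62, 6.97 and 7.14 in vehicle, a difference of -0.74 ± 0.16 without overlap. The other cytosolic falls were YARS1 (-0.63), FARSA (-0.60), CARS1 (-0.59), WARS1 (-0.46), GARS1 (-0.42), HARS1 (-0.38), IARS1 (-0.37), AARS1 (-0.36) and KARS1 (-0.31). The mitochondrial falls were CARS2 (-0.62 ± 0.09), FARS2 (-0.58 ± 0.11), EARS2 (-0.56 ± 0.12), VARS2 (-0.52 ± 0.13) and LARS2 (-0.38 ± 0.10). That of EARS2 was built into its entry, as with rapamycin. VARS2, the mitochondrial valine enzyme, read 7.06, 7.27, 6.71, 6.89 and 7.16, against 7.32, 7.74, 7.37, 7.48 and 7.77 in vehicle. Arrays overlapped in FARSA and IARS1 alone, and leaving out any 1 array ended none of the 16 calls. With the mean of all probe sets 9 members passed.

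In HB4a with both drugs, 5 of 17 cytosolic and 2 of 12 mitochondrial members fell, where 6.49% of all genes fell, and 1 mitochondrial member rose, where 10.9% rose. The cytosolic median was -0.30 and the mitochondrial median -0.13, against 0.05 over all genes. VARS1 read 5.19, 5.49, 5.95, 5.75 and 5.72, against 6.42, 6.77, 6.23, 6.70 and 6.47 in vehicle, a difference of -0.90 ± 0.17 (adjusted p = 0.00094), while its dim second probe set moved by -0.19. YARS1 read 6.93, 7.09, 7.60, 7.22 and 7.43, against 7.67, 8.11, 7.63, 8.02 and 7.91 in vehicle (-0.61 ± 0.14). KARS1 read 10.19, 10.22, 10.30, 10.26 and 10.14, against 10.54, 10.57, 10.58, 10.75 and 10.42 in vehicle (-0.35 ± 0.06). These 3 genes and GARS1 (-0.45 ± 0.10) had no overlap, whereas FARSB (-0.70 ± 0.18) did. Without the arrays that stood apart, 8 cytosolic and 3 mitochondrial members fell, and with the mean of all probe sets 5 members passed.

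Among the mitochondrial members of HB4a, VARS2 read 6.95, 6.97, 7.52, 7.11 and 7.24 with both drugs, against 7.78, 7.85, 7.59, 7.84 and 7.82 in vehicle, a difference of -0.62 ± 0.12 (adjusted p = 0.0013). NARS2, the asparagine enzyme, fell by 0.53 on the log2 scale, a call that ended without any of 7 arrays (vehicle 1, 2 or 4 or both-drugs 2, 3, 4 or 6) and without the filter (adjusted p = 0.066). AARS2, the alanine enzyme, rose by 0.46 ± 0.15 (adjusted p = 0.036), at 5.00, 5.2, 5.47, 5.46 and 5.54, against 4.72, 4.97, 4.71, 4.97 and 5.01 in vehicle, with overlap. Vehicle values of AARS2 lay around the log2 5 limit, and it passed the filter through the treated groups. Its call ended without the filter (adjusted p = 0.064), under quantile normalization (adjusted p = 0.079) and without vehicle 1 or 3 or both-drugs 3, 4 or 6.

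In SKBR3 with both drugs, 5 of 17 cytosolic and 0 of 10 mitochondrial members fell, where 13.6% of all genes fell, and WARS2 rose, where 8.35% rose. The cytosolic median was -0.18 and the mitochondrial median -0.04, against -0.06 over all genes. IARS1 read 8.20, 8.40, 8.44, 8.51 and 8.42, against 9.0, 8.84, 9.03, 9.13 and 8.95 in vehicle, a difference of -0.60 ± 0.08 (adjusted p = 3.9e-05). FARSB read 7.48, 7.31, 7.28, 7.25 and 7.29, against 7.84, 7.70, 7.69, 7.79 and 7.62 in vehicle (-0.41 ± 0.10). Both genes and YARS1 (-0.25 ± 0.08) were apart from vehicle, and TARS1 (-0.71 ± 0.24) and GARS1 (-0.28 ± 0.08) overlapped with it. GARS1 read 8.36, 8.40, 8.38, 8.74 and 8.33, against 8.77, 8.62, 8.79, 8.66 and 8.77 in vehicle, so array 4 was its single high one. WARS2 read 5.05, 5.24, 5.06, 5.32 and 5.21, against 4.83, 4.77, 4.7, 4.71 and 4.7 in vehicle, a rise of 0.43 ± 0.10 without overlap.

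The SKBR3 count with both drugs moved with the arrays used and with pairing. Without the number 1 arrays 2 cytosolic members fell, and without vehicle array 3, chosen after the data were seen, 3 did. Without both-drugs array 4, the high one for GARS1, 10 members passed, and with the mean of all probe sets 3 did. The call of TARS1 ended when any of 10 of the 20 arrays was left out (vehicle 1, 3, 4 or 6, doxorubicin 6, rapamycin 3 or both-drugs 1, 2, 3 or 6), and that of YARS1 when any of 6 was (vehicle 2, 3 or 6 or both-drugs 1, 2 or 3). With the array number as a block, which pairing allowed, 13 members passed, where 50.5% of all genes did. The added falls were EPRS1 (glutamate and proline, -0.49), NARS1 (asparagine, -0.47), NARS2 (-0.45), IARS2 (mitochondrial isoleucine, -0.39), LARS2 (-0.21) and HARS1 (-0.18), and VARS2 was an added rise (0.29).

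**Figure D2:**
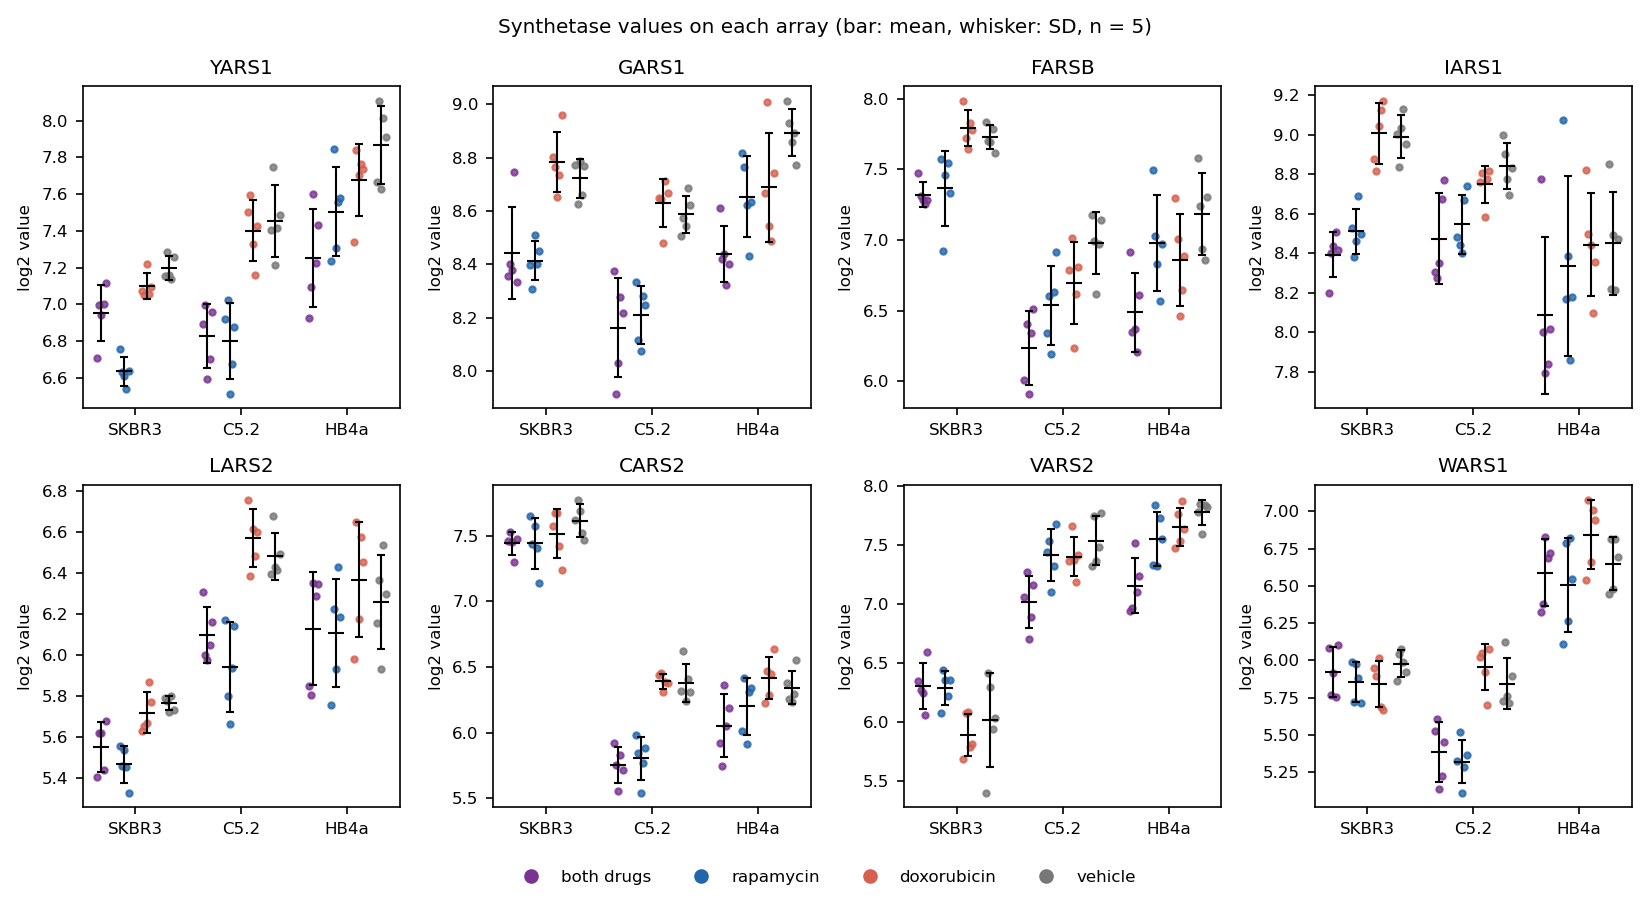
Log2 value on each array (y axis, a point per array) for 8 synthetases (panels) in the 3 lines (x axis), with colours for treatment, bars for the mean and whiskers for the SD of 5 arrays. In C5.2 the rapamycin and both-drugs arrays of YARS1 and CARS2 lie below the vehicle arrays, and in SKBR3 the same holds for IARS1.

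Doxorubicin alone moved few members, and their counts are not shown to lie below the share of all genes in any line. In HB4a 1 of 17 cytosolic and 2 of 12 mitochondrial members passed, where 11.4% of all genes did. The cytosolic median was -0.19, with 13 members below 0 and 4 above, and the mitochondrial median 0.01, against 0.06 over all genes. KARS1 read 10.34, 10.39, 10.40, 10.38 and 10.28 with doxorubicin, against 10.54, 10.57, 10.58, 10.75 and 10.42 in vehicle, a fall without overlap of -0.21 ± 0.06 (adjusted p = 0.019). Its call ended without vehicle 4 or doxorubicin 6 (adjusted p up to 0.063). AARS2 read 5.01, 5.53, 5.30, 5.43 and 5.51, against 4.72, 4.97, 4.71, 4.97 and 5.01 in vehicle, a rise of 0.48 ± 0.15 with overlap that ended without any of 8 arrays (vehicle 1, 2, 3 or 4 or doxorubicin 2, 3, 4 or 6). NARS2 fell by 0.52 on the log2 scale (adjusted p = 0.049), also with overlap, and that call ended when any of 16 of the 20 arrays was left out. Both ended without the filter as well (adjusted p = 0.068 and 0.091). Without the arrays that stood apart 5 members passed. With the number as a block 7 passed, where 32.7% of all genes did, the added ones being FARSB (-0.33), GARS1 (-0.20), SARS1 (0.29) and PARS2, the mitochondrial proline enzyme (0.39). PARS2 and AARS2 passed the filter in HB4a mainly through treated arrays, so their rises were partly built into their entry.

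In C5.2, doxorubicin alone moved 0 of 27 members past the limma threshold, where 3.26% of all genes passed, and 2 had an unadjusted p under 0.05. With the block 3 members passed, where 17.4% of all genes did: VARS1 (-0.35) and FARSB (-0.29) fell and SARS1 (0.30) rose. In SKBR3, doxorubicin alone moved 0 of 27 members in limma, where 0.837% of all genes passed. There 0 members had an unadjusted p under 0.05 and 0 passed with the block. The cytosolic differences in SKBR3 lay between -0.17 and 0.13 and the mitochondrial ones between -0.13 and 0.07.

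For YARS1, the tyrosine enzyme of the cytosol, the remaining groups are given as lowest, median and highest. In SKBR3 it was 6.71, 7.0 and 7.12 with both drugs and 7.05, 7.07 and 7.22 with doxorubicin. In C5.2 it was 6.59, 6.89 and 7.0 with both drugs and 7.16, 7.42 and 7.59 with doxorubicin. In HB4a it was 7.24, 7.55 and 7.85 with rapamycin and 7.34, 7.74 and 7.84 with doxorubicin. Of these YARS1 groups, SKBR3 with both drugs and C5.2 with both drugs lay apart from the vehicle of their line and the rest overlapped. GARS1 is the glycine enzyme, which is made for both compartments from a single gene. In SKBR3 it read 8.65, 8.77 and 8.96 with doxorubicin. In C5.2 it read 7.91, 8.22 and 8.37 with both drugs and 8.48, 8.65 and 8.71 with doxorubicin. In HB4a it read 8.32, 8.42 and 8.61 with both drugs, 8.43, 8.63 and 8.82 with rapamycin, 8.49, 8.67 and 9.01 with doxorubicin and 8.77, 8.89 and 9.01 in vehicle. Of these GARS1 groups, C5.2 with both drugs and HB4a with both drugs lay apart from the vehicle of their line and the rest overlapped. FARSB is the beta subunit of the cytosolic phenylalanine enzyme. In SKBR3 the values were 7.64, 7.78 and 7.99 with doxorubicin. In C5.2 the values were 6.19, 6.60 and 6.91 with rapamycin and 6.24, 6.79 and 7.01 with doxorubicin. In HB4a the values were 6.2, 6.37 and 6.92 with both drugs, 6.57, 6.97 and 7.50 with rapamycin, 6.46, 6.89 and 7.30 with doxorubicin and 6.86, 7.24 and 7.58 in vehicle. Each of these treated FARSB groups overlapped with the vehicle of its line. IARS1 is the isoleucine enzyme and a member of the complex. In SKBR3 arrays gave 8.82, 9.05 and 9.17 with doxorubicin. In C5.2 arrays gave 8.27, 8.35 and 8.77 with both drugs, 8.40, 8.48 and 8.74 with rapamycin, 8.58, 8.78 and 8.82 with doxorubicin and 8.70, 8.83 and 9.0 in vehicle. In HB4a arrays gave 7.80, 8.0 and 8.77 with both drugs, 7.86, 8.18 and 9.08 with rapamycin, 8.10, 8.44 and 8.82 with doxorubicin and 8.22, 8.47 and 8.85 in vehicle. Each of these treated IARS1 groups overlapped with the vehicle of its line.

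LARS2 is the leucine enzyme of mitochondria. In SKBR3 signals were 5.40, 5.62 and 5.68 with both drugs and 5.63, 5.67 and 5.87 with doxorubicin. In C5.2 signals were 5.98, 6.05 and 6.31 with both drugs and 6.38, 6.60 and 6.76 with doxorubicin. In HB4a signals were 5.80, 6.29 and 6.35 with both drugs, 5.76, 6.19 and 6.43 with rapamycin, 5.98, 6.46 and 6.65 with doxorubicin and 5.93, 6.30 and 6.54 in vehicle. Of these LARS2 groups, SKBR3 with both drugs and C5.2 with both drugs lay apart from the vehicle of their line and the rest overlapped. CARS2 is the cysteine enzyme of mitochondria. In SKBR3 it gave 7.30, 7.46 and 7.53 with both drugs, 7.14, 7.44 and 7.65 with rapamycin and 7.24, 7.57 and 7.68 with doxorubicin. In HB4a it gave 5.75, 6.05 and 6.37 with both drugs, 5.92, 6.31 and 6.42 with rapamycin and 6.23, 6.45 and 6.64 with doxorubicin. Each of these treated CARS2 groups overlapped with the vehicle of its line. VARS2 is the valine enzyme of mitochondria. In SKBR3 it came to 6.08, 6.36 and 6.44 with rapamycin and 5.69, 5.82 and 6.08 with doxorubicin. In C5.2 it came to 7.10, 7.44 and 7.68 with rapamycin and 7.19, 7.38 and 7.66 with doxorubicin. In HB4a it came to 7.32, 7.55 and 7.83 with rapamycin. Each of these treated VARS2 groups overlapped with the vehicle of its line. WARS1 is the tryptophan enzyme of the cytosol. In SKBR3 it stood at 5.75, 5.92 and 6.10 with both drugs, 5.71, 5.88 and 5.99 with rapamycin, 5.67, 5.89 and 6.02 with doxorubicin and 5.86, 5.99 and 6.08 in vehicle. In C5.2 it stood at 5.13, 5.45 and 5.60 with both drugs and 5.70, 6.03 and 6.08 with doxorubicin. In HB4a it stood at 6.32, 6.69 and 6.83 with both drugs, 6.11, 6.55 and 6.82 with rapamycin and 6.54, 6.94 and 7.08 with doxorubicin. Of these WARS1 groups, C5.2 with both drugs lay apart from the vehicle of its line and the rest overlapped.

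Over the 9 comparisons with vehicle, the cytosolic members gave 40 falls and 0 rises in 153 tests, spread over 13 of 17 genes. The mitochondrial members gave 13 falls and 4 rises in 96 tests, with 6 genes that fell and 2 that rose. The comparisons of a line share vehicle arrays, so these counts are not independent of each other. Of all genes, 14.6% fell with rapamycin and 14.6% with both drugs in C5.2, 10.8% and 13.6% in SKBR3, and 6.49% with both drugs in HB4a. The 4 mitochondrial rises came where 7.48% to 10.9% of all genes rose or, with doxorubicin in HB4a, 11.4% passed in either direction. They are not shown to exceed those shares. YARS1 and GARS1 fell in 5 of the 9, FARSB, IARS1 and KARS1 in 4, and VARS1, CARS1, AARS1 and the mitochondrial LARS2 in 3. EPRS1, LARS1, NARS1 and RARS1 among the cytosolic genes and PARS2, IARS2, YARS2, HARS2 and RARS2 among the mitochondrial genes passed in none. Of the 5 members of the multisynthetase complex that had a value (EPRS1, IARS1, KARS1, LARS1 and RARS1), 2 fell with rapamycin and 2 with both drugs in C5.2. Both times they were IARS1 and KARS1, beside 9 and 9 of the 12 other cytosolic genes, where 14.6% of all genes fell each time. Synthetases fall into 2 catalytic classes with unlike folds, and with rapamycin in C5.2 5 of 7 cytosolic class I and 6 of 9 class II genes fell. In SKBR3 the counts with rapamycin were 3 of 7 and 4 of 9, where 10.8% of all genes fell. EPRS1, which holds an enzyme of each class, was counted in neither.

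The median over the tested members on each array shows the same data without a call on single genes. It is taken over deviations from the line's own vehicle means, so the vehicle arrays lie around 0 by construction. No median over all genes was set beside it. With both drugs the cytosolic medians were -0.25 to -0.16 in SKBR3, -0.57 to -0.25 in C5.2 and -0.45 to -0.28 in HB4a. With rapamycin alone they were -0.31 to -0.13 in SKBR3, -0.44 to -0.22 in C5.2 and -0.31 to -0.11 in HB4a. In vehicle they were -0.05 to 0.11, -0.10 to 0.06 and -0.06 to 0.04 in those lines, so every array with rapamycin was below every vehicle array of its line. With doxorubicin alone the cytosolic medians were -0.06 to 0.20 in SKBR3, -0.125 to 0.05 in C5.2 and -0.20 to 0.01 in HB4a. Each range overlapped with vehicle. In HB4a, doxorubicin arrays 3, 4 and 6 (-0.17, -0.20 and -0.13) lay below all vehicle arrays. The mitochondrial medians with rapamycin were -0.26 to 0.11 in SKBR3, -0.42 to -0.09 in C5.2 and -0.28 to 0.05 in HB4a, against -0.04 to 0.11, -0.05 to 0.03 and -0.14 to 0.13 in vehicle. They were apart from vehicle in C5.2 and overlapped with it in SKBR3 and HB4a.

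**Figure D3:**
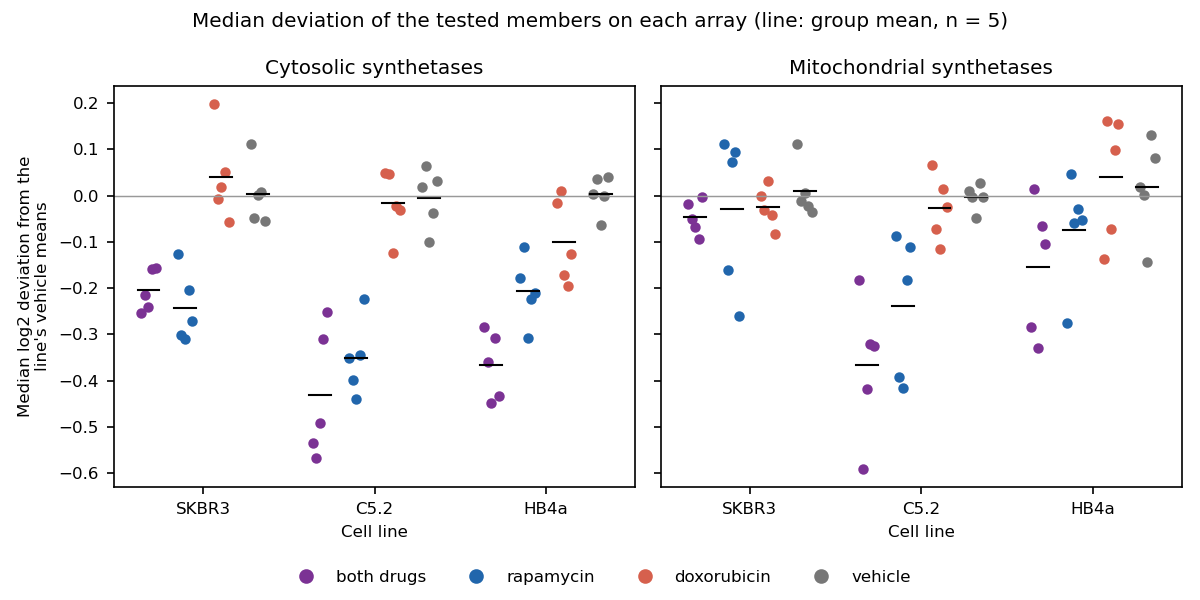
Median over the tested cytosolic (left) and mitochondrial (right) synthetases of the log2 deviation from the line's vehicle means (y axis), a point per array, with colours for treatment and a line at the mean of each group of 5. The cytosolic medians with both drugs in C5.2, -0.57 to -0.25, lie below the vehicle arrays at -0.10 to 0.06.

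Rapamycin added to doxorubicin was read as both drugs against doxorubicin alone. In C5.2, 10 of 17 cytosolic and 4 of 10 mitochondrial members were lower with both drugs and 0 higher, where 11.8% of all genes were lower. The largest differences were those of VARS1 (-0.84 ± 0.15), CARS1 (-0.65 ± 0.08), EARS2 (-0.64 ± 0.12), CARS2 (-0.64 ± 0.09), YARS1 (-0.57 ± 0.12) and WARS1 (-0.57 ± 0.11), and the others were FARSA, FARS2, HARS1, LARS2, GARS1, AARS1, SARS1 and KARS1, between -0.55 and -0.29. CARS1 read 7.20, 7.09, 7.06, 7.19 and 7.34 with both drugs, against 7.88, 7.87, 7.77, 7.75 and 7.88 with doxorubicin. CARS2 read 5.92, 5.75, 5.56, 5.83 and 5.72, against 6.44, 6.45, 6.31, 6.39 and 6.38 with doxorubicin. Neither had overlapping arrays, while FARSA and SARS1 did. The SARS1 call ended without any of 6 arrays (doxorubicin 1, 2, 3 or 6 or both-drugs 3 or 4). The dim second probe sets of VARS1 and SARS1 moved by 0.07 and 0.10, opposite to the brighter ones. VARS1 and EARS2 passed the filter in C5.2 through vehicle and doxorubicin arrays, so their differences here were partly built into their entry.

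In SKBR3, TARS1 (-0.75), IARS1 (-0.61), FARSB (-0.47), GARS1 (-0.34) and AARS1 (-0.32) were lower with both drugs than with doxorubicin alone, 5 of 17 cytosolic members where 14.6% of all genes were lower, and WARS2 was higher by 0.36. The AARS1 call ended without any of 10 arrays and the TARS1 call without any of 7 (adjusted p up to 0.12 and 0.096). With the number as a block 12 members passed, where 49.6% of all genes did. In HB4a, VARS1 (-0.69 ± 0.17) and VARS2 (-0.50 ± 0.12) were lower, where 1.43% of all genes were. VARS2 read 6.95, 6.97, 7.52, 7.11 and 7.24 with both drugs, against 7.48, 7.76, 7.53, 7.87 and 7.64 with doxorubicin, so the groups overlapped by a single array, number 3. Both HB4a calls ended without any of 6 arrays (doxorubicin 2, 3 or 4 or both-drugs 1, 2 or 4 for VARS1, doxorubicin 2, 4 or 6 or both-drugs 1, 2 or 4 for VARS2).

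Doxorubicin added to rapamycin was read as both drugs against rapamycin alone. In HB4a, KARS1 (-0.25 ± 0.06) and VARS2 (-0.40 ± 0.12) were lower, 2 of 29 members where 8.84% of all genes passed. KARS1 read 10.19, 10.22, 10.30, 10.26 and 10.14 with both drugs, against 10.39, 10.48, 10.50, 10.57 and 10.42 with rapamycin, without overlap. The VARS2 call ended when any of 15 of the 20 arrays was left out (adjusted p up to 0.12). In C5.2, SARS1 alone was higher, by 0.32 ± 0.09, where 6.39% of all genes passed, a call that ended without any of 6 arrays (rapamycin 1, 3 or 4 or both-drugs 1, 2 or 6). With the block VARS2 (-0.40), FARSB (-0.30) and VARS1 (-0.29) were lower too, where 22.2% of all genes passed. In SKBR3 limma called 0 of 27 members, where 0.552% of all genes passed, and 3 members had an unadjusted p under 0.05, all higher. With the block YARS1 (0.32) and CARS1 (0.30) were higher, where 6.64% of all genes passed.

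The lines were compared in vehicle, and since no batch is given in the labels, a batch that went with a line would be inseparable from it. Between SKBR3 and HB4a, 6 cytosolic and 3 mitochondrial members were higher in SKBR3, where 37.6% of 7270 genes were, and 6 cytosolic and 7 mitochondrial members lower, where 39.7% were. The cytosolic shares were near those of all genes. EPRS1 read 7.60, 6.77, 7.30, 7.66 and 7.45 in SKBR3, against 5.82, 4.53, 5.04, 4.46 and 5.45 in HB4a, a difference of 2.29 ± 0.34 (adjusted p = 1.5e-07), or 4.90-fold. TARS1 (1.75 ± 0.31) and LARS1 (1.57 ± 0.18) came next. AARS1 read 5.70, 5.92, 6.22, 5.97 and 6.02 in SKBR3, against 7.22, 7.46, 7.38, 7.36 and 7.34 in HB4a, a difference of -1.39 ± 0.12. EPRS1 and AARS1 did not overlap between the lines. WARS1 (-0.67 ± 0.13) and YARS1 (-0.67 ± 0.11) were the next cytosolic genes lower in SKBR3. The YARS1 difference was 0.04 (adjusted p = 0.77) when all its probe sets were averaged, and was called for the brightest one only. The VARS1 call in this comparison ended without HB4a vehicle 2 or 4 or SKBR3 vehicle 1, and the SARS1 call without HB4a vehicle 2 or SKBR3 vehicle 4 or 6.

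Of the mitochondrial genes, IARS2 (1.28 ± 0.23), CARS2 (1.27 ± 0.11) and EARS2 (0.49 ± 0.10) were higher in SKBR3 than in HB4a, and VARS2 (-1.76 ± 0.14), RARS2 (-1.41 ± 0.17) and PARS2 (-1.05 ± 0.17) led those that were lower. CARS2 read 7.62, 7.78, 7.69, 7.52 and 7.47 in SKBR3, against 6.38, 6.26, 6.24, 6.30 and 6.55 in HB4a. VARS2 read 5.40, 6.42, 6.30, 5.94 and 6.04 in SKBR3, against 7.78, 7.85, 7.59, 7.84 and 7.82 in HB4a. Neither gene overlapped between the lines, and they moved in opposite directions. AARS2 and PARS2 passed the filter of the fits with HB4a through HB4a, RARS2, for arginine, through C5.2 or HB4a, and WARS2 through SKBR3, so a difference in these genes was built into their entry.

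Between SKBR3 and C5.2, 5 cytosolic and 5 mitochondrial members were higher in SKBR3, where 36.2% of 7324 genes were, and 4 cytosolic and 5 mitochondrial members lower, where 42.6% were. RARS2 read 5.34, 4.57, 4.76, 4.83 and 4.51 in SKBR3, against 7.15, 7.01, 7.25, 7.24 and 7.09 in C5.2, a difference of -2.35 ± 0.17 and a 5.09-fold lower signal. The lines did not overlap. RARS2 entered this fit through C5.2 and WARS2, among the higher genes, through SKBR3, so a difference in both was built into their entry. Next among the lower mitochondrial genes were VARS2 (-1.52 ± 0.14) and FARS2 (-1.38 ± 0.13), and the higher ones were led by CARS2 (1.24 ± 0.10), IARS2 (1.09 ± 0.20) and NARS2 (0.64 ± 0.17). Cytosolic differences were led by EPRS1 (1.74 ± 0.24), TARS1 (1.41 ± 0.24) and LARS1 (0.97 ± 0.22) among the higher and AARS1 (-1.05 ± 0.10), FARSA (-0.47 ± 0.12) and YARS1 (-0.26 ± 0.10) among the lower genes. The YARS1 call ended without C5.2 vehicle 2, and the SARS1 call without any of 6 arrays (C5.2 vehicle 2, 4 or 6 or SKBR3 vehicle 3, 4 or 6).

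Between C5.2 and its parent HB4a, 2 cytosolic and 4 mitochondrial members were higher in C5.2, where 29.3% of 6962 genes were, and 6 cytosolic and 3 mitochondrial members lower, where 19.9% were. WARS1 read 5.73, 6.12, 5.76, 5.71 and 5.90 in C5.2, against 6.44, 6.82, 6.48, 6.82 and 6.69 in HB4a, a difference of -0.81 ± 0.13 without overlap. The cytosolic genes next lower were VARS1 (-0.68 ± 0.16) and KARS1 (-0.51 ± 0.06). Among the mitochondrial genes RARS2 (0.94 ± 0.13), YARS2 (0.68 ± 0.10) and FARS2 (0.61 ± 0.13) were the 3 most above HB4a. Those below it were NARS2 (-0.63 ± 0.17), AARS2 (-0.62 ± 0.13) and PARS2 (-0.58 ± 0.17). AARS2 and PARS2 entered this fit through HB4a alone, so their lower values in C5.2 were built into their entry. The cytosolic genes higher in C5.2 were LARS1 (0.60 ± 0.23) and IARS1 (0.39 ± 0.17). The IARS1 call ended when any of 27 of the 40 arrays was left out, and the LARS1 call without HB4a vehicle 2, 3 or 4 or C5.2 vehicle 1. Without the arrays that stood apart, 6 cytosolic members were higher and 7 lower.

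**Figure D4:**
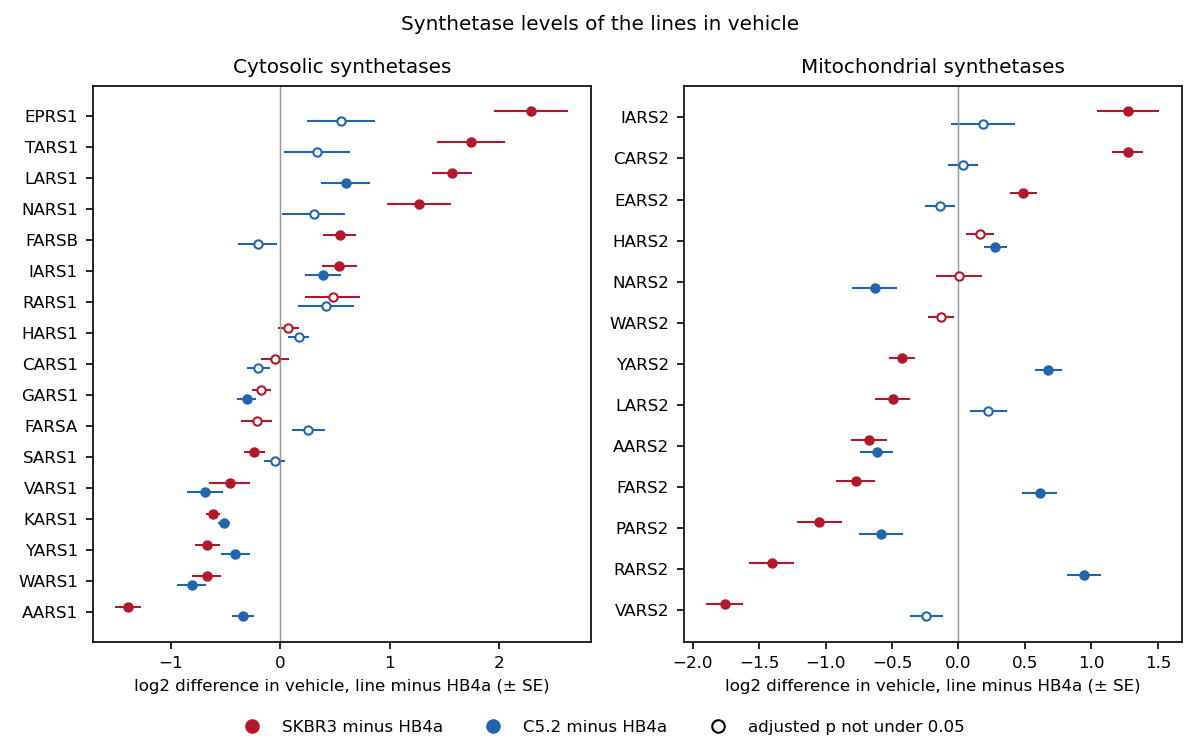
Log2 difference in vehicle from HB4a (x axis, line minus HB4a, ± standard error) for cytosolic (left) and mitochondrial (right) synthetases, red for SKBR3 and blue for C5.2, with open symbols where the adjusted p was not under 0.05. EPRS1 is the most raised and VARS2 the most lowered in SKBR3, and RARS2 is lower in SKBR3 but higher in C5.2 than in HB4a.

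Whether a response differed between lines was tested as a difference of differences. Between C5.2 and HB4a, limma called 0 of 29 members for doxorubicin (0.101% of all genes passed), 0 for rapamycin (0% of all genes) and 0 for both drugs (0.373% of all genes). An unadjusted p under 0.05 occurred in 1, 6 and 6 members for these treatments. The falls called with rapamycin in C5.2 and not in HB4a were not shown to differ between these lines. For VARS1 the C5.2 response minus the HB4a response was -0.40 ± 0.23, and for CARS2 it was -0.43 ± 0.16. With the number as a block, EARS2 fell more under rapamycin in C5.2 than in HB4a (-0.45, adjusted p = 0.024), 1 member where 2.53% of all genes passed.

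Between SKBR3 and HB4a, 2 of 30 members differed in the response to both drugs, where 9.82% of all genes did. VARS2 gave 0.91 ± 0.20 (adjusted p = 0.0015). It read 6.35, 6.28, 6.25, 6.06 and 6.59 with both drugs in SKBR3, against 5.40, 6.42, 6.30, 5.94 and 6.04 in vehicle, with overlap, while in HB4a it fell by 0.62 on the log2 scale. KARS1 gave 0.31 ± 0.09 (adjusted p = 0.025), with a difference of -0.04 in SKBR3 and of -0.35 in HB4a, and its call ended without HB4a vehicle 4, HB4a both-drugs 6 or SKBR3 vehicle 4. For doxorubicin alone limma called 0 of 30 members (3.87% of all genes passed) and for rapamycin alone 0 (5.03% of all genes), with 3 and 3 members at an unadjusted p under 0.05. With the block, AARS2 (-0.43), FARSB (0.39) and KARS1 (0.24) differed for doxorubicin, where 15.9% of all genes did. For rapamycin the block called TARS1 (-0.83), EPRS1 (-0.70), VARS2 (0.50), WARS2 (0.43), SARS1 (0.37) and IARS1 (-0.36), where 22.5% of all genes passed. AARS2 passed the filter of this fit through HB4a, and WARS2 mainly through SKBR3 arrays with rapamycin or both drugs. The differences called for these genes were thus partly built into their entry.

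The cytosolic and mitochondrial enzymes for the same amino acid were set side by side as changes. With rapamycin in C5.2, CARS1 and CARS2 both fell (-0.58 and -0.58), as did FARSA and FARS2 (-0.57 and -0.48). VARS1 and VARS2 both fell with both drugs in C5.2 (-1.19 and -0.52) and in HB4a (-0.90 and -0.62). HARS1, whose promoter window is partly that of HARS2 above, read 7.57, 7.48, 7.21, 7.45 and 7.54 with rapamycin in C5.2, against 7.90, 8.02, 7.85, 7.96 and 7.90 in vehicle. HARS1 thus fell without overlap (-0.48 ± 0.09), whereas HARS2 differed by 0.03 ± 0.08; the difference between the 2 genes was not tested. LARS2 fell where LARS1 differed by -0.03, and EARS2 fell where EPRS1, for the same amino acid, differed by 0.25. The falls of EARS2 and VARS1 in C5.2 carry the entry limit given above. Of 11 pairs tested in C5.2, 2 were called the same way with rapamycin and 4 with both drugs, where 14.6% of all genes fell each time. In SKBR3 0 of 11 pairs were called the same way with either treatment. FARS2 is in 2 of the 11 pairs, with FARSA and with FARSB, and both of these are among the 4 in C5.2.

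A set of 6 synthetases varied most between arrays of a single group, and it is described here without a test because it was picked after its values were seen. The pooled within-group SD was 0.50 for EPRS1, 0.48 for TARS1, 0.44 for NARS1, 0.38 for RARS1, 0.38 for IARS2 and 0.34 for LARS1, against a median of 0.24 over the 7714 genes above log2 5 on at least 5 of the 60 arrays. KARS1 and GARS1 had 0.09 and 0.13. Deviations of the 6 from their group means ran together over the 60 arrays, with pairwise correlations from 0.606 to 0.938, the points sharing arrays and array numbers. Their mean deviation was 0.28 to 0.54 on the 4 SKBR3 arrays numbered 4, -0.62 to -0.12 on the 4 C5.2 arrays numbered 2 and 0.57 to 1.17 on the 4 HB4a arrays numbered 1. Of the 6, TARS1 alone passed in a comparison with vehicle. EPRS1 and IARS2 lie on chromosome 1 with 1 protein-coding gene between them.

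**Figure D5:**
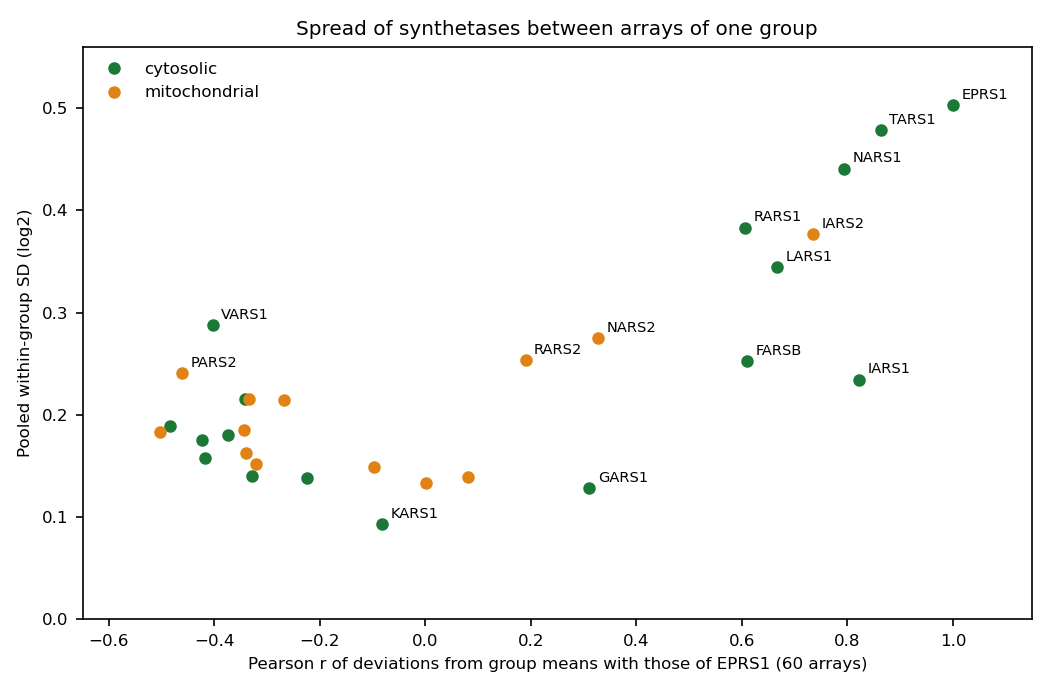
Pooled within-group SD (log2, y axis) of each synthetase against the Pearson correlation of its deviations from group means with those of EPRS1 over 60 arrays (x axis), green for cytosolic and orange for mitochondrial genes. EPRS1, TARS1, NARS1, RARS1, IARS2 and LARS1 lie at the top right with SDs of 0.34 to 0.50, and KARS1 lies lowest at 0.09.

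Genes of the amino acid response were measured beside the synthetases, from a list of 11. With rapamycin in C5.2, 6 of 8 tested fell and 0 rose, where 14.6% of all genes fell. The falls were led by ASNS (asparagine synthetase, -0.92 ± 0.11), PHGDH (the first enzyme of serine synthesis, -0.83 ± 0.14) and PSAT1 (the next one, -0.67 ± 0.15). In SKBR3 with rapamycin 3 of 7 fell, where 10.8% of all genes did, namely PHGDH (-1.29 ± 0.13), PSAT1 (-1.17 ± 0.15) and ASNS (-0.79 ± 0.13). In HB4a limma called 0 of 8 with rapamycin, where 3.18% of all genes passed, with a median of -0.45 and 6 at an unadjusted p under 0.05. There 7 fell with the number as a block, where 16.3% of all genes passed in either direction. With both drugs 3 of 7 fell in SKBR3, 4 of 8 in C5.2 and 4 of 8 in HB4a, where 13.6%, 14.6% and 6.49% of all genes fell. SESN2, an mTORC1 inhibitor that p53 also induces, rose with both drugs in C5.2 (0.80 ± 0.16) and HB4a (0.64 ± 0.18) and with doxorubicin alone in C5.2 (1.32 ± 0.16) and HB4a (1.20 ± 0.18).

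Other genes of translation were measured too. EEF2, the translocation factor of the ribosome, rose with rapamycin in SKBR3 (0.42 ± 0.11) and C5.2 (0.42 ± 0.07) and with both drugs in SKBR3 (0.49 ± 0.11), C5.2 (0.41 ± 0.07) and HB4a (0.31 ± 0.06). EEF1A1, which delivers charged tRNAs to the ribosome, rose in C5.2 with rapamycin (0.29 ± 0.07) and with both drugs (0.28 ± 0.07). TSFM, the exchange factor of mitochondrial elongation, fell in C5.2 with rapamycin (-0.29 ± 0.09) and with both drugs (-0.35 ± 0.09). XPOT, the tRNA exporter, fell with both drugs in SKBR3 (-0.70 ± 0.24). AIMP1, a scaffold of the multisynthetase complex, gave 0 calls and 0 unadjusted p under 0.05 in limma over the 9 comparisons with vehicle. Genes of mitochondrial tRNA amidation and formylation, of which 4 were tested in C5.2 and HB4a and 1 in SKBR3, gave 0 calls in limma without the block, with 1 at an unadjusted p under 0.05 for rapamycin and 1 for both drugs in C5.2.

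Markers of other states moved beside the synthetases. ISG15 and IRF1, both interferon-induced, rose in HB4a with doxorubicin (1.09 ± 0.23 and 0.57 ± 0.17) and with both drugs (1.03 ± 0.23 and 0.51 ± 0.17), where WARS1 differed by 0.19 and -0.06. In C5.2 under rapamycin, where WARS1 fell, ISG15 fell by 0.33 on the log2 scale. The basal keratin KRT5 fell with rapamycin in C5.2 (-0.97 ± 0.28) and HB4a (-1.01 ± 0.13) and with both drugs in C5.2 (-1.94 ± 0.28) and HB4a (-1.58 ± 0.13). KRT19 also fell in those 4 comparisons. DCN fell with both drugs in C5.2 (-1.54 ± 0.27) and HB4a (-0.88 ± 0.30). The summed linear signal of the 3 fibroblast markers was 25.1 to 44.4 with both drugs in C5.2, against 61.3 to 118 in vehicle, and 62.7 to 160 in HB4a, against 90.4 to 254 in vehicle. LUM, also a fibroblast marker, averaged 0.54 in C5.2 and 0.71 in HB4a in vehicle, near the floor. The part of these changes in the synthetase results was not tested.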

How the data were processed

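RNA of 60 samples was hybridised to Affymetrix arrays after 3' in vitro transcription labelling, per the labels' protocols. The deposited values are log2 probe set signals made by the authors with RMA, per the submitters' processing notes, whose version is not given in the sources used here. They ran from -0.60 to 13.08, with array medians of 1.41 to 1.71. Vehicle arrays are titled DRC, which the protocol text gives to the drug pair, and were placed by their source names. The dose unit that the protocol writes as hM is nM in the source names.

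Of 54675 probe sets, 41091 carried a single symbol, 1801 several and 11777 none, and the brightest single-symbol probe set stood for each gene. The members held 67 probe sets, and 18 members had several. Each line was fitted with its 20 arrays, and 2 lines with their 40, in limma 3.58.1 (R 4.3.3; lmFit, contrasts and eBayes with trend), with Benjamini-Hochberg adjustment over all genes tested. The code was tested on simulated data. Tables and figures were made with matplotlib 3.10.9, numpy 2.4.6 and pandas 2.3.3 under Python 3.11.15.

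The array number pairs arrays where every same-numbered pair of groups had deviations from the group means correlated above 0.1. This held within SKBR3 (lowest r 0.238), for single drugs against vehicle in HB4a (0.428), within C5.2 (0.105) except for both drugs against vehicle (-0.100), and for C5.2 against HB4a (0.163). It failed with both drugs in HB4a (-0.569), for SKBR3 against HB4a (-0.116) and for SKBR3 against C5.2 (-0.0635). The labels do not say what the number stands for.

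The members and gene lists were chosen with earlier results of these data known. Every member called in a comparison is named, or the 8 with the largest changes per compartment, and for lines the 3 largest differences each way. Alternatives were the number as a replicate block, averaging the probe sets of a gene, quantile normalization, a stricter filter (log2 7) or none, leaving out the arrays that stood apart, and leaving out each array. Leaving out SKBR3 vehicle array 3 was chosen after seeing the data.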

Additional observations from a re-analysis of the deposited data

Results flagged for a closer look

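In 8 of 96 groups of 5 arrays examined, the highest or lowest array stood far from the other 4 relative to the range of the group (Dixon's test), where chance gives about 1 in 20. YARS1 had a low array 1 in HB4a with doxorubicin (7.34) and a high array 3 in SKBR3 with doxorubicin (7.22). GARS1 had a high array 4 in SKBR3 with both drugs (8.74) and a low array 3 in C5.2 with doxorubicin (8.48). FARSB had a high array 1 in SKBR3 with both drugs (7.48). IARS1 had a high array 1 in HB4a with both drugs (8.77) and a low array 3 in C5.2 with doxorubicin (8.58). VARS2 had a low array 3 in HB4a vehicle (7.59).

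The response to both drugs differed between lines in limma for KARS1 (SKBR3 minus HB4a, 0.31) and for VARS2 (0.91).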

How the results depend on the processing

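Counts of members called are given here by setting, and the cause of each shift was not tested beyond what a setting removes. Counts under other settings, here and above, carry no share of all genes unless one is printed beside them. That share can move too, as with the block for doxorubicin in HB4a, from 11.4% to 32.7%. The counts alone are thus no result about the synthetases. A filter at log2 7, which tests fewer genes, gave 8 for rapamycin and 8 for both drugs against vehicle in C5.2, 8 for both drugs against doxorubicin in C5.2, 5 for both drugs against vehicle in HB4a, 1 for both drugs against doxorubicin in HB4a, and 1 each for doxorubicin in C5.2 and HB4a. For lines it gave 13 for SKBR3 against HB4a, 12 for SKBR3 against C5.2 and 7 for C5.2 against HB4a. The mean of all probe sets, which also tests fewer members, gave 14 for SKBR3 against HB4a, 11 for SKBR3 against C5.2, and 5 for rapamycin and 3 for both drugs in SKBR3. It gave 8 for rapamycin, 9 for both drugs and 8 for both drugs against doxorubicin in C5.2, with 5 for both drugs and 1 for both drugs against doxorubicin in HB4a. Its counts for responses that differ between SKBR3 and HB4a were 4 for both drugs and 1 for doxorubicin. Without the filter 5 were called for rapamycin in SKBR3, 1 for doxorubicin in HB4a, 0 for both drugs against doxorubicin in HB4a, and 1 in HB4a and 0 in C5.2 for both drugs against rapamycin. Quantile normalization gave 0 for both drugs against rapamycin in C5.2, and 5 for both drugs and 1 for rapamycin as differences between SKBR3 and HB4a.

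With the replicate block, paired comparisons gave 5 for rapamycin and 7 for doxorubicin in HB4a, 3 for doxorubicin and 4 for both drugs against rapamycin in C5.2, and 13 for both drugs, 12 for both drugs against doxorubicin and 2 for both drugs against rapamycin in SKBR3. Where the numbers did not pair every group, the block gave 13 for both drugs against doxorubicin and 8 for both drugs against rapamycin in HB4a. The share of all genes is not given for these. For differences between SKBR3 and HB4a it gave 7 for both drugs, 6 for rapamycin and 3 for doxorubicin, and between C5.2 and HB4a 5 for both drugs and 1 for rapamycin. The block moved no other count of members by more than 1.5 times.

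Without the arrays that stood apart, the counts were 5 for doxorubicin and 4 for both drugs against rapamycin in HB4a, 1 and 2 for those comparisons in C5.2, 3 for both drugs and 1 for both drugs against rapamycin in SKBR3, and 1 for the doxorubicin response between SKBR3 and HB4a. Without SKBR3 vehicle array 3, the counts were 7 for rapamycin and 4 for both drugs in SKBR3.

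Leaving out 1 array at a time gave, against vehicle, 12 to 16 for rapamycin, 16 to 16 for both drugs and 0 to 1 for doxorubicin in C5.2, where the 1 came without vehicle 2, doxorubicin 4 or both-drugs 2. It gave 6 to 9 for rapamycin, 4 to 10 for both drugs and 0 to 0 for doxorubicin in SKBR3, and 0 to 0, 6 to 9 and 0 to 3 for the same treatments in HB4a. Both drugs against doxorubicin ranged over 13 to 17 in C5.2, 4 to 7 in SKBR3 and 0 to 2 in HB4a, and both drugs against rapamycin over 0 to 1 in C5.2, 0 to 1 in SKBR3 and 1 to 4 in HB4a, whose highest counts came without both-drugs array 1. Lines ranged over 20 to 23 for SKBR3 against HB4a, 17 to 21 for SKBR3 against C5.2 and 13 to 15 for C5.2 against HB4a. Differences between SKBR3 and HB4a ranged over 1 to 3 for both drugs, 0 to 2 for rapamycin (2 without HB4a rapamycin array 2) and 0 to 0 for doxorubicin, and those between C5.2 and HB4a over 0 to 0 for each treatment.

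Among single members, over all settings but leaving out 1 array, 735 values kept direction and call, 56 kept direction and lost the call, and 1 reversed, YARS1 between SKBR3 and HB4a (0.040 with the mean of all probe sets, adjusted p = 0.77). Calls in genes that a setting did not test, as with the stricter filter or the mean of all probe sets, are not among these values. Members near log2 5, such as AARS2, WARS2 and, in C5.2, EARS2 and VARS1, are limited by their signal over background.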
